A study of Mus musculus with 6 samples.

Results

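Colon epithelium makes part of its own cholesterol, and 30 genes of that supply were followed here in mice with and without Sel1L. They comprise 20 enzymes in the order of the pathway from acetyl-CoA to cholesterol, 6 regulators of the SREBP transcription factors, and 4 genes of the liver X receptor (LXR) branch that exports sterol. The genes were chosen by name, with earlier results of these data known. Of the 30, 28 were among the 19936 genes measured, each read by its brightest probe set. Acat2, the cytosolic thiolase at the head of the pathway, and Nr1h2, which encodes LXR beta, had no probe set naming them alone in the annotation used and were not analysed here.

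Transcripts of colon epithelium were measured on Affymetrix arrays from 3 Sel1L knockout and 3 wild type samples, all from male C57BL/6J mice aged 8 weeks. In the knockout (Sel1L-delta-IEC), exon 6 of Sel1l lay between loxP sites and was removed by a Cre recombinase driven by the villin-1 promoter, which is active in intestinal epithelium; the labels of the wild type samples name no floxed allele and no Cre. Levels are the deposited log2 RMA values, so a change of 1 is a 2-fold difference, and the labels do not say whether each array stands for a separate mouse. All 8 epithelial markers, such as Epcam and Vil1, lay above the median of all values, 6.34, against 9 of 36 markers of immune, stromal, muscle and vascular cells.

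Sel1L is the adaptor of the Hrd1 ubiquitin ligase, which removes misfolded proteins from the endoplasmic reticulum (ER). The sensors of cholesterol lie in the same membrane. When ER cholesterol is plentiful, Insig proteins hold Scap and its cargo, the SREBP precursors, in the ER. When it falls, Scap escorts the precursors to the Golgi, where proteases free the transcription factor domain, which then switches on the enzymes of sterol synthesis and uptake. LXR works the other way: oxysterols activate it, and it raises the genes of sterol export.

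Sel1l itself read 8.70, 9.06 and 8.66 in the knockout arrays, against 9.45, 9.67 and 9.54 in the wild type arrays. Every knockout array lay below every wild type array, and the change was -0.74 ± 0.11 (SE, limma adjusted p = 0.018). This call was lost when knockout array 1 or 3 or wild type array 1 or 2 was left out, with adjusted p up to 0.087. Across genes the arrays correlated at 0.993 to 0.997, and pairs of same-genotype arrays differed with an SD of 0.167 to 0.194 over genes.

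Among the enzymes of sterol synthesis, Cyp51 alone was called lower in the knockout, and most of the others had small negative changes that did not pass the test. Of the 19 measured enzymes 16 had a negative change, with a median of -0.16 on the log2 scale, against a median of 0.019 over all genes. Negative changes made up 42.8% of all genes. In 10 of the 19, every knockout array read below every wild type array, and in none did every knockout array read above. Of the 11 measured enzymes from squalene epoxidase onwards 8 had no overlap, against 2 of the 8 before it, a difference that was not tested. This cut was not a planned grouping. Fdft1, counted before the cut, overlapped by its brightest probe set and had no overlap by a dimmer probe set. Over all genes the share with every knockout array below was 7.98%, and the share with every knockout array above was 11.4%. The enzymes were brighter, with a median level of 9.61 against 6.67 over all genes. Here and below, shares over all genes were not matched for level. The call on Cyp51 was made over all genes (limma, Benjamini-Hochberg adjusted p under 0.05) and was lost with any array left out, and 10 enzymes were lower at an unadjusted p under 0.05. Among all genes 1.63% were called, 0.712% lower and 0.918% higher, and 5.62% were lower at an unadjusted p under 0.05. The largest difference, that of Cyp51, put the knockout 20.2% below wild type. With an intensity trend in limma's prior, or without the dimmest 50% of genes, 4 enzymes were called lower, with Idi1, Dhcr7 and Nsdhl beside Cyp51. Calls over all genes rose in these fits too, to 614 with the trend and 598 without the dimmest 50%, against 325. The filtered fit also tested fewer genes.

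**Figure D1:**
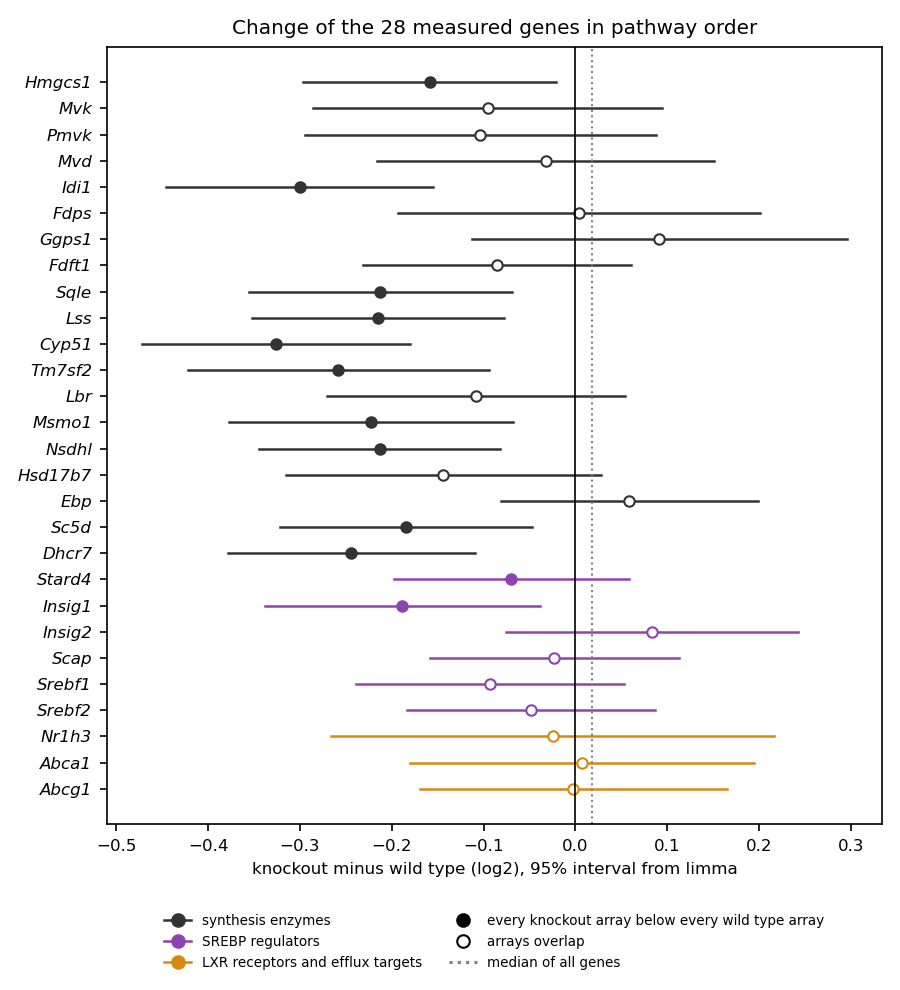
Log2 change of the 28 measured genes, knockout minus wild type (horizontal axis), in pathway order from top to bottom, with the 95% interval of limma's fit. Filled points mark the 12 genes with every knockout array below every wild type array. The synthesis enzymes run from -0.33 for Cyp51 to 0.092 for Ggps1, and the LXR genes from -0.025 to 0.0070.

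Early in the pathway, Hmgcs1 encodes the cytosolic synthase that makes HMG-CoA. It read 11.11, 11.17 and 11.14 in the knockout, against 11.31, 11.35 and 11.23 in wild type. The groups did not overlap, but the change of -0.16 ± 0.060 was not called (adjusted p = 0.30).

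The steps from mevalonate to the isoprenoids were mixed. Idi1, the isomerase that balances both isoprenoid units, stood apart within this stretch. It read 9.96, 9.82 and 9.83 in the knockout, against 10.13, 10.19 and 10.19 in wild type. Every knockout array lay below every wild type array, and the change was -0.30 ± 0.064 (adjusted p = 0.065). A further Idi1 probe set (10482762) read 9.78, 9.70 and 9.76 in the knockout against 10.01, 10.06 and 10.06 in wild type, a change of -0.30 ± 0.058, so both probe sets gave the same size of difference. The kinases Mvk and Pmvk, which phosphorylate mevalonate in turn, differed by -0.096 ± 0.083 and -0.10 ± 0.083. Mvd, the decarboxylase that follows them, differed by -0.032 ± 0.080. Fdps, which makes farnesyl diphosphate, differed by 0.0044 ± 0.086 (95% interval -0.19 to 0.20), and its sign turned under other scalings. Ggps1, which lengthens that product for protein prenylation, differed by 0.092 ± 0.089. The arrays of both genotypes overlapped for these 5 genes, and their adjusted p values ran from 0.67 to 0.99.

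Squalene marks the step that commits isoprenoids to sterols. Fdft1, the squalene synthase, read 11.23, 11.13 and 11.28 in the knockout, against 11.27, 11.33 and 11.30 in wild type. Its groups overlapped, with a change of -0.085 ± 0.064 (adjusted p = 0.64), whereas a dimmer Fdft1 probe set (10420730) gave -0.15 ± 0.060 with no overlap. Sqle, the squalene epoxidase and a rate-limiting step of the pathway, read 10.35, 10.25 and 10.38 in the knockout, against 10.50, 10.58 and 10.54 in wild type. Lss, which folds the epoxide into lanosterol, read 9.19, 9.25 and 9.30 in the knockout, against 9.48, 9.42 and 9.48 in wild type. Neither gene's groups overlapped, and both changes were of like size, -0.21 ± 0.062 for Sqle (adjusted p = 0.17) and -0.22 ± 0.060 for Lss (adjusted p = 0.15).

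From lanosterol to cholesterol, a part of the 19 enzymes counted above, 8 of 9 had a negative change, with a median of -0.21. In 6 of the 9 the groups did not overlap. Among all genes 42.8% had a negative change, and 7.98% had every knockout array below every wild type array. Cyp51, the cytochrome P450 that demethylates lanosterol, read 9.26, 9.30 and 9.27 in the knockout, against 9.51, 9.67 and 9.63 in wild type. The knockout arrays were close together (SD 0.019) and the wild type arrays less so (SD 0.083). Cyp51 fell by 0.33 ± 0.064 on the log2 scale, and its adjusted p of 0.0498 lay just under the threshold. Leaving out any of the 6 arrays in turn ended that call, with adjusted p from 0.075 to 0.17 and a change from -0.37 to -0.29. The call also ended with array weights (adjusted p = 0.055), median centring (adjusted p = 0.051) and a robust prior (adjusted p = 0.0503).

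Tm7sf2 and Lbr both encode sterol reductases for the step after Cyp51, and Lbr is also a receptor for lamin B in the nuclear envelope. Tm7sf2 read 8.40, 8.49 and 8.41 in the knockout, against 8.68, 8.59 and 8.80 in wild type, with a change of -0.26 ± 0.071 and no overlap (adjusted p = 0.15). Lbr read 9.211, 9.004 and 9.042 in the knockout, against 9.165, 9.185 and 9.231 in wild type. Its knockout array 1 lay among the wild type arrays, and the change was -0.11 ± 0.071 (adjusted p = 0.58). The difference between these paralogs was not tested.

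Removal of the next methyl groups needs Msmo1, an oxidase, Nsdhl, a dehydrogenase, and Hsd17b7, a reductase. Msmo1 read 10.78, 10.79 and 10.89 in the knockout, against 10.99, 11.14 and 10.99 in wild type. Nsdhl read 9.91, 9.90 and 9.98 in the knockout, against 10.13, 10.14 and 10.16 in wild type. Both were lower in every knockout array, by -0.22 ± 0.067 (adjusted p = 0.19) and -0.21 ± 0.057 (adjusted p = 0.14) on the log2 scale. Hsd17b7 read 9.47, 9.24 and 9.39 in the knockout and 9.50, 9.57 and 9.46 in wild type, with overlap at a single pair of arrays and a change of -0.14 ± 0.075 (adjusted p = 0.47).

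The last steps act on the sterol rings. Ebp, the isomerase that shifts a ring double bond, was the exception after squalene, at 9.05, 9.02 and 8.99 in the knockout and 8.92, 8.92 and 9.04 in wild type. Its change was 0.059 ± 0.061 (95% interval -0.081 to 0.20). Sc5d, the desaturase that follows it, read 9.48, 9.56 and 9.59 in the knockout, against 9.71, 9.77 and 9.71 in wild type. Dhcr7, the reductase of 7-dehydrocholesterol, which is also the precursor of vitamin D, read 9.87, 9.86 and 9.94 in the knockout, against 10.11, 10.18 and 10.11 in wild type. Groups did not overlap for Sc5d (-0.18 ± 0.060, adjusted p = 0.22) or Dhcr7 (-0.24 ± 0.059, adjusted p = 0.10).

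**Figure D2:**
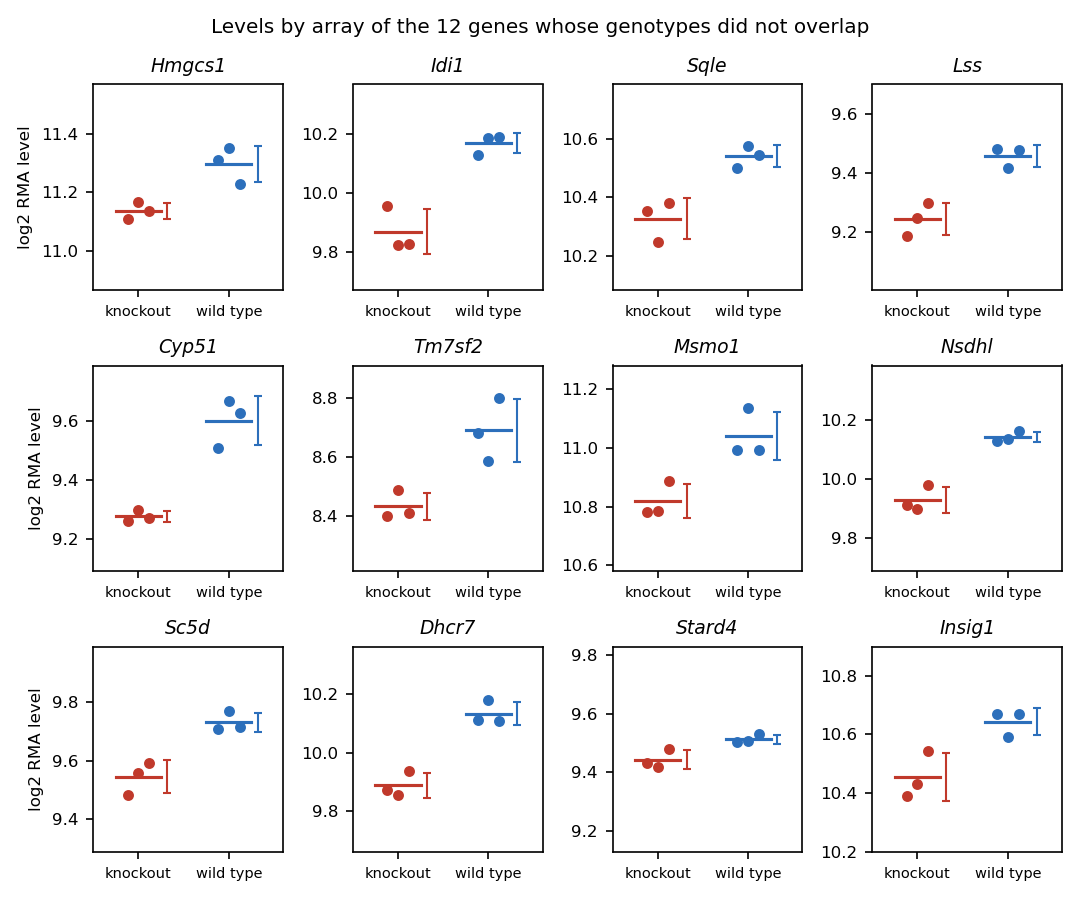
Log2 RMA level (vertical axis, the same span of 0.7 in every panel) in each knockout array (left) and wild type array (right) for the 12 genes whose genotypes did not overlap. Horizontal lines are means and error bars are SD of 3 arrays. The gap is widest in Cyp51 and narrowest in Stard4.

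Averaged over the 19 enzymes, the knockout arrays deviated from each gene's mean over all arrays by -0.079, -0.089 and -0.049, against 0.046, 0.073 and 0.098 in the wild type arrays. Knockout array 3 was thus the nearest to wild type and wild type array 1 the nearest to the knockout. Knockout arrays 1, 2 and 3 lay below every wild type array in 14, 15 and 12 of the 19 enzymes. These counts by single array were not taken over all genes, so they have no background share beside them. Leaving out each array in turn gave a median change of the enzymes between -0.19 and -0.15.

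Most, but not all, markers of absorptive colonocytes, the mature surface cells that take up salt and water, were lower in the same knockout arrays. Of 8 such markers, 3 were called lower and 6 had no overlap, with a median change of -0.47, larger than that of the enzymes. Over all genes 0.712% were called lower, and 7.98% had every knockout array below every wild type array. The mean log2 level of the list was 10.83 to 11.03 in knockout arrays, against 11.27 to 11.49 in wild type arrays. The called markers were Atp12a (-0.81 ± 0.092, kept with each array left out), Aqp8 (-0.80 ± 0.14, kept in 2 of 6 such fits) and Scnn1b (-0.64 ± 0.10, kept in 1 of 6). Car1 (0.0058 ± 0.087, adjusted p = 0.99) and Krt20 (-0.070 ± 0.097, adjusted p = 0.82) overlapped between genotypes. For the general epithelial markers the mean level was 11.90 to 11.96 in knockout arrays, against 11.91 to 11.98 in wild type arrays. Within that list 4 changes were positive and 4 negative, and none was called. Epcam and Cdh1 each differed by -0.23 ± 0.058 (adjusted p = 0.12) with every knockout array below, and Cdx2, an intestinal transcription factor, by 0.28 ± 0.088 (adjusted p = 0.20) with every knockout array above. The mean level of the crypt and proliferation markers was 8.18 to 8.50 in knockout arrays and 8.37 to 8.45 in wild type arrays, and none of 7 was called. Of these, Mcm5 alone had no overlap between genotypes (-0.26, adjusted p = 0.37). Mcm5, Epcam, Cdh1, Cdx2, Car1 and Krt20 were named after their values were seen. None of 36 markers of other cell types was called by limma, and 1 had an unadjusted p under 0.05. The part of these markers in the enzyme difference was not tested. In bulk tissue, fewer cells of a type and less RNA per cell cannot be told apart.

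**Figure D3:**
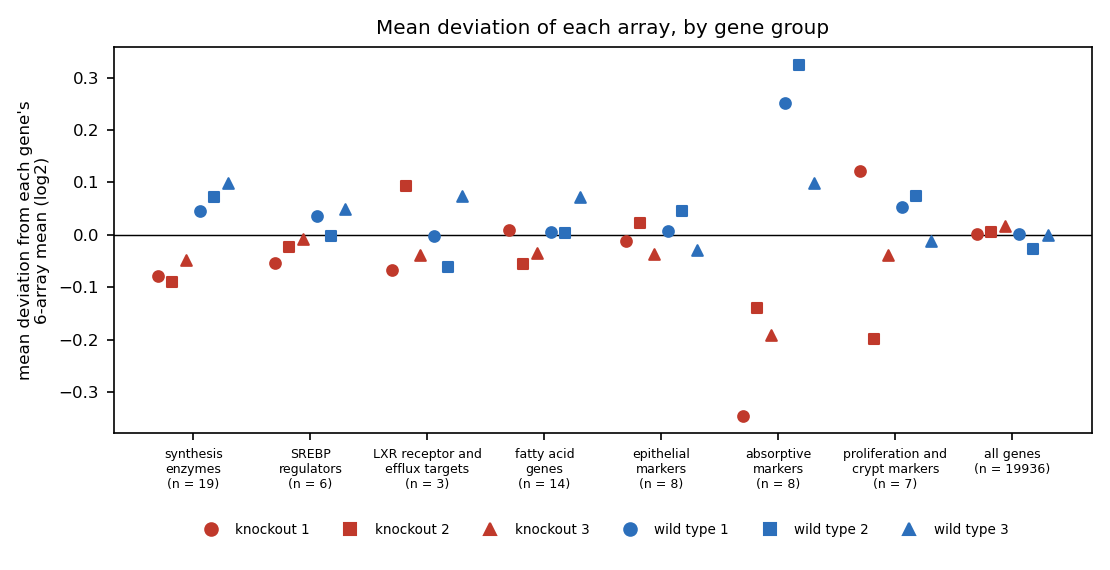
Mean deviation of each array from the genes' own means over all 6 arrays (vertical axis, log2), by gene group, with knockout arrays in red on the left of each group and wild type arrays in blue. For the synthesis enzymes all 3 knockout arrays lie below 0 and all 3 wild type arrays above it. The absorptive markers show a wider gap, and the LXR genes and all genes show none.

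Promoter sequences are shown for the enzymes with the smallest p values. SREBP binds a sterol regulatory element (SRE), usually beside sites for NF-Y, which binds CCAAT, and Sp1. RefSeq windows (GRCm38.p6) from 250 bases before to 50 bases after a transcript start were found for 23 of the 28 genes, 16 of them synthesis enzymes. Capitals mark ATTGG or its reverse CCAAT, and the SRE core TCACNCCAC, searched on both strands. The Cyp51 window is at chr5:4104648-4104947 on the minus strand, Idi1 at chr13:8885356-8885655 on the plus strand, Dhcr7 (the most upstream of 3 starts) at chr7:143822917-143823216 on the plus strand and Nsdhl at chrX:72918271-72918570 on the plus strand. The Hmgcs1 window, at chr13:119690101-119690400 on the plus strand, was added after the search because it held the SRE core. None of the other windows printed here held that exact string, and variants of the element were not searched.
Cyp51: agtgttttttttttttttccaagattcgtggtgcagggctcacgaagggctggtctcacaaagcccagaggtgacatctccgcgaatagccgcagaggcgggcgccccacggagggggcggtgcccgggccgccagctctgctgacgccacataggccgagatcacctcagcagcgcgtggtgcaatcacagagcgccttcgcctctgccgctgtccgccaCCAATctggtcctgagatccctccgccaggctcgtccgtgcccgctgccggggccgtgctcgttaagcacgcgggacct
Idi1: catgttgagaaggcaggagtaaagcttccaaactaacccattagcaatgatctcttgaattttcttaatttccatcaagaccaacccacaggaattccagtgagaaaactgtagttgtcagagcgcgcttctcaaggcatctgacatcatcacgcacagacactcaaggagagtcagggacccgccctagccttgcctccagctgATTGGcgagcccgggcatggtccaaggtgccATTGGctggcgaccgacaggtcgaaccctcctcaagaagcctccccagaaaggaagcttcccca
Dhcr7: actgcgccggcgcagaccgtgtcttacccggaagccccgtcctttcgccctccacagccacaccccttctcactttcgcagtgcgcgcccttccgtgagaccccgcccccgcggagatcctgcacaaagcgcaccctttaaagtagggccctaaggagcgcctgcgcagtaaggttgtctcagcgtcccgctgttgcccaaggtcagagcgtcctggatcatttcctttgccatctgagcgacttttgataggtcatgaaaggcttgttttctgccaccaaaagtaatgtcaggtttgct
Nsdhl: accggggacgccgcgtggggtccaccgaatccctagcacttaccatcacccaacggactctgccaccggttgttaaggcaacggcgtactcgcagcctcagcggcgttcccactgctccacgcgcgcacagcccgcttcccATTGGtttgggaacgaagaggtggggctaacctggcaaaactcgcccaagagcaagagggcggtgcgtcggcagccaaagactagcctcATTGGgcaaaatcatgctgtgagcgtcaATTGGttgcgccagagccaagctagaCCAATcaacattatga
Hmgcs1: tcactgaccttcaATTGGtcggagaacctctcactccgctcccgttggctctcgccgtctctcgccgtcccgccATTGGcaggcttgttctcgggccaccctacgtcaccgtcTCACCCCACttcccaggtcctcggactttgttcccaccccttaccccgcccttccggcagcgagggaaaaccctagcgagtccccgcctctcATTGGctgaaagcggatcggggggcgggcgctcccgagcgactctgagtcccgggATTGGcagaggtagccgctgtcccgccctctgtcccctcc

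All 16 enzymes with a window had ATTGG or CCAAT in at least 1 of their windows, against 41.1% of 27025 genes in the table. Those 27025 genes were not limited to genes measured here and were not matched for level. An Sp1 box, GGGCGG on either strand, was found for 14 of the 16 enzymes, against 38.2% of all genes. The printed Dhcr7 window holds no ATTGG or CCAAT, and the window of its most downstream start holds 2; in the Cyp51 window the match lies 29 bases before the start. Counted by window, the shares were 84.2% against 37.4% for ATTGG and 78.9% against 35.7% for GGGCGG. The SRE core was rarer, in Hmgcs1 alone of the 16 enzymes, 137 bases before the start, against 1.44% of all genes, and the E-box CACGTG was found for 3 of the 16, against 8.09%. Ebp, Mvk, Mvd and Ggps1, whose levels overlapped between genotypes, also had ATTGG or CCAAT in their windows. These are matches of letters in short windows, and binding was not measured here.

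None of the 6 SREBP regulators was called, and their median change was -0.059. Insig1, which retains Scap in the ER and is itself an SREBP target, was lower in every knockout array. It read 10.39, 10.43 and 10.54 in the knockout, against 10.67, 10.59 and 10.67 in wild type, a change of -0.19 ± 0.065 that was not called (adjusted p = 0.25). Stard4, a cytosolic sterol carrier that SREBP also induces, read 9.43, 9.42 and 9.48 in the knockout, against 9.50, 9.51 and 9.53 in wild type. The groups did not overlap, but the change was small, -0.070 ± 0.056 (adjusted p = 0.67). With the 10 enzymes they made 12 of the 28 measured genes with every knockout array below, 42.9%, against 7.98% of all genes.

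Insig2, the isoform less dependent on SREBP, read 8.92, 8.98 and 8.78 in the knockout, against 8.83, 8.84 and 8.75 in wild type. Its groups overlapped, and the change was 0.083 ± 0.069 (95% interval -0.076 to 0.24). The difference between the Insig genes was not tested. Scap read 9.15, 9.19 and 9.23 in the knockout and 9.25, 9.16 and 9.22 in wild type, a change of -0.023 ± 0.059. Srebf2, which encodes the SREBP of sterol synthesis, read 10.31, 10.34 and 10.35 in the knockout and 10.34, 10.35 and 10.45 in wild type. Its change was -0.048 ± 0.059 (95% interval -0.18 to 0.087). Srebf1, which encodes the SREBP of fatty acid synthesis, read 8.78, 8.83 and 8.88 in the knockout and 8.93, 8.85 and 8.99 in wild type, a change of -0.093 ± 0.064 (95% interval -0.24 to 0.053). The arrays overlapped in these 4 genes, and none was called (adjusted p from 0.60 to 0.91). Cleavage of the SREBP proteins was not measured here.

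None of the 3 measured genes of the LXR receptors and efflux targets was called, and the arrays of both genotypes overlapped in each. Nr1h3, which encodes LXR alpha, read 7.52, 7.93 and 7.60 in the knockout and 7.76, 7.72 and 7.65 in wild type, and its knockout arrays spread more widely (SD 0.22) than its wild type arrays (SD 0.059). Its change was -0.025 ± 0.11 (95% interval -0.27 to 0.22). Abca1, which loads cholesterol onto apolipoproteins, read 6.26, 6.30 and 6.22 in the knockout and 6.27, 6.10 and 6.40 in wild type, close to the median of all values. Its change was 0.0070 ± 0.082 (95% interval -0.18 to 0.19). Abcg1, which moves sterol to lipoproteins, read 6.93, 6.96 and 6.97 in the knockout and 6.87, 6.90 and 7.09 in wild type, a change of -0.0023 ± 0.073 (95% interval -0.17 to 0.16). All 3 changed sign under some alternatives, Abca1 with quantile normalization or median centring, Abcg1 with array weights and each gene with some array left out.

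Further genes of the same supply, 73 in 5 lists, were read beside these. Of the 65 measured, limma called 2, against 1.63% called among all genes. Both were lower in the knockout and both in the list of LXR partners and targets (2 of 10, with a list median of -0.10). Abcg5 encodes a transporter that with Abcg8 pumps sterols out across the apical membrane. It read 6.41, 6.54 and 6.55 in the knockout, against 6.94, 7.12 and 7.07 in wild type. Abcg5 fell by 0.54 ± 0.073 log2 units (adjusted p = 0.012), whereas Abcg8 differed by -0.098 ± 0.096. Smpdl3a, which encodes a phosphodiesterase and is a known LXR target in human macrophages, read 10.80, 10.93 and 10.99 in the knockout, against 11.42, 11.49 and 11.39 in wild type. Smpdl3a fell by 0.53 ± 0.070 (adjusted p = 0.012). In neither gene did the groups overlap. The Abcg5 call ended without knockout array 1 (adjusted p = 0.059) or wild type array 2 (adjusted p = 0.055), and the Smpdl3a call without knockout array 1 (adjusted p = 0.053), wild type array 1 (adjusted p = 0.052) or wild type array 2 (adjusted p = 0.055).

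Among 14 fatty acid genes downstream of SREBP none was called by limma. Every knockout array lay below every wild type array in 6 of the 14, and above in 1. Over all genes these shares were 7.98% and 11.4%. The median was -0.13, and 6 were lower and 1 higher at an unadjusted p under 0.05. Of all 19936 genes, 1120 were lower and 1539 higher at that threshold. Acss2, which makes acetyl-CoA from acetate, read 9.61, 9.67 and 9.62 in the knockout, against 9.91, 9.84 and 10.04 in wild type (-0.30 ± 0.068, adjusted p = 0.085). Acaca (-0.15), Acly (-0.24), Fads2 (-0.31), Scd1 (-0.30) and Scd2 (-0.17), named after their values were seen, also had no overlap and were not called. Me1, the malic enzyme that supplies NADPH and is also a target of NRF2, had the most positive change of the list and read 7.94, 7.70 and 7.64 in the knockout, against 6.82, 6.81 and 7.45 in wild type. Its change of 0.73 ± 0.17 was not called (adjusted p = 0.087), and wild type array 3 stood above the other wild type arrays.

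The other lists gave no call. In SREBP processing and sterol-regulated degradation, with 9 genes measured and a median of -0.014, Spring1, a cofactor of the SREBP protease, differed by 0.17 ± 0.059 (adjusted p = 0.25) and Paqr3, a Golgi anchor of Scap, by 0.36 ± 0.17 (adjusted p = 0.41). Sterol uptake and transfer, with 16 genes and a median of 0.072, had Vldlr, a lipoprotein receptor, at 0.48 ± 0.11 (adjusted p = 0.085) and Osbp, which carries sterol from the ER to the Golgi, at 0.25 ± 0.058 (adjusted p = 0.083), both with every knockout array above every wild type array. Among 16 enzyme partners and other users of isoprenoids, with a median of 0.030, Dhdds and Nus1, subunits of the enzyme that makes dolichol for N-glycosylation, differed by 0.29 ± 0.067 (adjusted p = 0.089) and 0.18 ± 0.083 (adjusted p = 0.40).

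**Figure D4:**
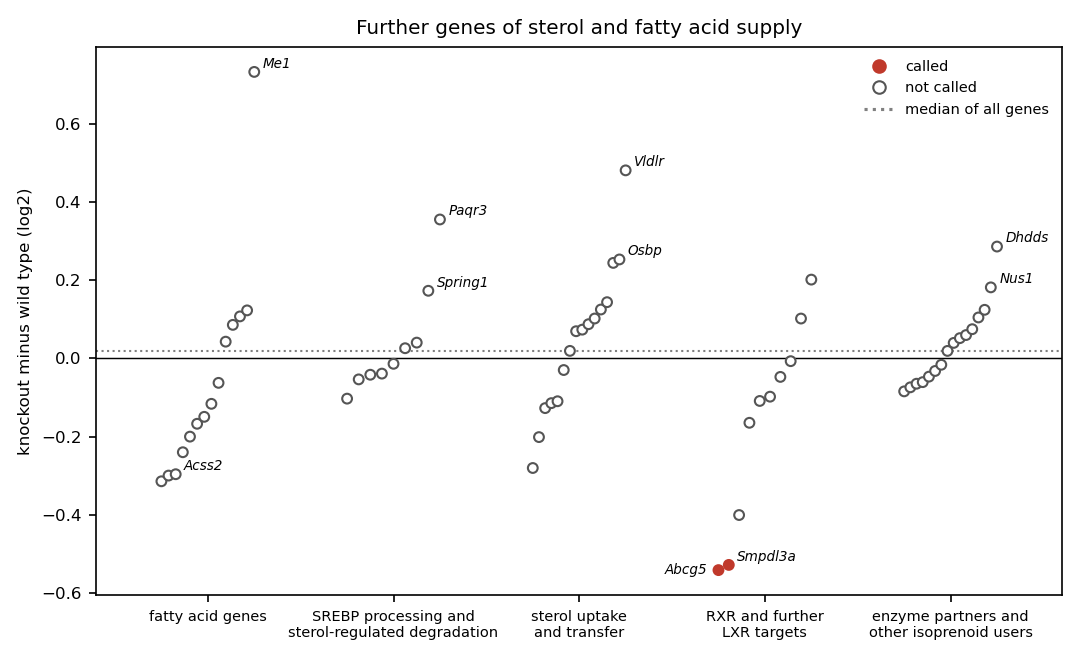
Log2 change of the 65 further genes measured, knockout minus wild type (vertical axis), by list, ordered by size within each list. Red points are the called genes, Abcg5 and Smpdl3a, and labels give these and the genes named by the rule. The dotted line is the median of all genes, 0.019.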

How the data were processed

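The authors deposited a table of log2 expression values for which the submitters' processing notes name RMA, a method of background correction, normalization across arrays and summary of probes per probe set. Its software, version and genome build were not given in the sources used here, and the log2 scale was read from the values. Array medians lay between 6.32 and 6.36. Of 35556 probe sets, 21789 named 1 gene, 1621 several and 12146 none in the platform annotation table; those naming 1 gene were used, symbols were updated through RefSeq (GRCm38.p6), and the brightest probe set stood for each of 19936 genes.

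Genotypes were compared over all genes with limma 3.58.1 in R 4.3.3 (lmFit, eBayes, genotype as the only term, two-sided, Benjamini-Hochberg), with calls made below an adjusted p of 0.05. Changes are knockout minus wild type with the moderated SE and a 95% interval. The p-values measure the spread between arrays, which may be technical, and 3 arrays a genotype limit the precision. No batch or scan date entered the fit.

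The members and gene lists were chosen with earlier results of these data known, so lists are described without a test. Genes were named by rule: every member, Sel1l, each called further gene, otherwise the 2 of each further list with the smallest p. The fit was tested on simulated data. Tables used pandas 2.3.3 and figures matplotlib 3.10.9, under Python 3.11.15. Alternatives were a replicate block, quantile normalization, median centring, filters on dim genes, array weights, other variance priors, averaged probe sets per gene, the annotation's own symbols and leaving out each array.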

Additional observations from a re-analysis of the deposited data

How the results depend on the processing

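Cyp51 was the single call among the 28 genes, and the number called lower was 0 with the replicate block, median centring, a robust prior, array weights and each array left out (0 to 0), 2 without the dimmest 25% of genes, and 4 without the dimmest 50% or with an intensity trend. The filters test fewer genes by construction, and the cause of the calls gained with the trend was not tested. Cyp51 had an adjusted p of 0.092 with the replicate block, and the median change of the enzymes stayed between -0.19 and -0.15 under all alternatives run. Replicate numbers were not taken to pair the arrays. Same-numbered arrays correlated at -0.10, 0.15 and 0.15 in their deviations. Knockout array 1 correlated best with wild type array 2 (0.12), whereas knockout arrays 2 and 3 each correlated best with their own number. The block gave 217 called genes against 325. Genes called over all genes numbered 598 without the dimmest 50%, 614 with an intensity trend and 69 to 303 with an array left out, and further genes called numbered 9, 9 and 0 to 4. The median change over all genes was 0.0034 with median centring, 0.0028 without the dimmest 50% and 0.0083 to 0.023 with an array left out. Sel1l ranged from -0.87 to -0.67 with an array left out. The sign turned for 5 members: Mvd (-0.11 to 0.028), Fdps (-0.036 to 0.084), Nr1h3 (-0.15 to 0.055), Abca1 (-0.071 to 0.077) and Abcg1 (-0.045 to 0.067) with an array left out, Fdps with quantile normalization (-0.0056) and median centring (-0.011), Abca1 with the same (-0.0096 and -0.0082), and Abcg1 with array weights (0.0038). The cause was not tested for these turns, nor for the calls lost. Abca1 has no value without the dimmest 50%, being among the genes left out. Of 447 member values under 16 alternatives, 412 kept direction and side of the threshold.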
